A study of Homo sapiens with 6 samples.

Results

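The heat shock protein and DNAJ genes encode the main chaperones of the cell, and their RNA was compared between SW480 cells with and without a hairpin against MORC2. Members were chosen by symbol: HSPA, HSPB, HSPH and HSP90 genes, HSPD1, HSPE1, and DNAJA, DNAJB and DNAJC genes. HSPA5 and symbols ending in P, alone or followed by digits, were left out. The rule matched 107 symbols and kept 73 of the 56303 genes in the count table, and 64 of those 73 had enough reads to be tested. By family the 73 members were 15 HSP70 and HSP110 genes, 3 HSP90 genes, 8 small heat shock protein genes, the HSP60 and HSP10 pair, 4 DNAJA, 13 DNAJB and 28 DNAJC genes.

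SW480 is an established line from a human colorectal adenocarcinoma. Polyadenylated RNA was sequenced from 3 libraries of cells that carried a control hairpin (shCtrl, genotype given as wild type) and 3 libraries of cells that carried a hairpin against MORC2 (shMORC2, given as MORC2 knockdown). Both groups had been infected with lentivirus and selected with puromycin into stable lines. MORC2 is a nuclear ATPase of the microrchidia family. The methods of the study describe clonal lines. Each group rests on 1 hairpin construct, and the methods of the study speak of 3 replicate experiments in each. No label says whether these were separate cultures, so the p-values measure the spread between these libraries, which may be technical. No heat, drug or other stress was part of the labels.

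HSP70 proteins bind unfolded stretches of client proteins and release them through a cycle of ATP hydrolysis. DNAJ proteins deliver clients to HSP70 and switch on its ATPase, and nucleotide exchange factors such as the HSP110 and BAG proteins reset the cycle. HSP90 finishes the folding of kinases and receptors, and the HSP60 chaperonin with its HSP10 lid folds proteins in the mitochondrial matrix. Inducible members are transcribed when heat shock factor HSF1 binds inverted GAA repeats (heat shock elements) in their promoters, whereas chaperones of the endoplasmic reticulum answer to the unfolded protein response through an element of their own.

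The bases before the transcription start are shown for 6 members, because they place those elements beside the values that follow. Of these members, 5 had lower RNA in shMORC2 and 1 (HSP90B1) had higher RNA. These 6 are examples only. HSP90AA1, HSP90AB1, DNAJA1 and DNAJB6 also hold heat shock elements, did not pass the test used below and are not printed. The sequences are from RefSeq on GRCh38.p14, cover the 250 bases before a start and are written 5′ to 3′. Capitals mark matches to GAANNTTC, to GAANNTTCNNGAA (TTCNNGAANNTTC on the other strand) or, in HSP90B1, to the endoplasmic reticulum stress element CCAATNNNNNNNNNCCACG (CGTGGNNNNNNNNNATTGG on the other strand).
HSPA1A (chr6:31815293-31815542, plus strand): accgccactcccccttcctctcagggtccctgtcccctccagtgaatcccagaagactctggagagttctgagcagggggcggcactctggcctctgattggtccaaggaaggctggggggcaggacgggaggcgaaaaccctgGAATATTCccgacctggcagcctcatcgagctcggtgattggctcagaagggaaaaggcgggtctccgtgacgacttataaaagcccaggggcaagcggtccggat
HSPA1B (chr6:31827488-31827737, plus strand): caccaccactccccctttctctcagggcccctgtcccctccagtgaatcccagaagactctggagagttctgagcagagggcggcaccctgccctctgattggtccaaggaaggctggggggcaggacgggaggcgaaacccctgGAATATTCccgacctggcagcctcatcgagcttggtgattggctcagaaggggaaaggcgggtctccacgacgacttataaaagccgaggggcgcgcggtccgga
DNAJB1 (chr19:14518398-14518647, minus strand): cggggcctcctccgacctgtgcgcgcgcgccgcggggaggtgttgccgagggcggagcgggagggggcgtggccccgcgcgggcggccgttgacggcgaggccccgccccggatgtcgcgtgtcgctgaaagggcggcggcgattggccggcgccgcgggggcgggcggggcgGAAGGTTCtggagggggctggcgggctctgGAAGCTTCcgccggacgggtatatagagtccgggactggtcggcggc
HSPA8 (chr11:123062137-123062386, minus strand): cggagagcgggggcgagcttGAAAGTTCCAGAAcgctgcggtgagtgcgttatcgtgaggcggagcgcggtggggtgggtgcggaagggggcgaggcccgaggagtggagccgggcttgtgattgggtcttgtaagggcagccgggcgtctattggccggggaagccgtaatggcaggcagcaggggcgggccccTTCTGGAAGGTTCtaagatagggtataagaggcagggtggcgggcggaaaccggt
HSPD1 (chr2:197499841-197500090, minus strand): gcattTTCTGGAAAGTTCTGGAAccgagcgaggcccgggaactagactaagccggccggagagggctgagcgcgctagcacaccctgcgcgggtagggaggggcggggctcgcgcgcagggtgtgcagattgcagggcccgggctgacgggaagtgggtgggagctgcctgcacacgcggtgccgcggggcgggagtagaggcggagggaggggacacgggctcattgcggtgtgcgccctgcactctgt
HSP90B1 (chr12:103930160-103930409, plus strand): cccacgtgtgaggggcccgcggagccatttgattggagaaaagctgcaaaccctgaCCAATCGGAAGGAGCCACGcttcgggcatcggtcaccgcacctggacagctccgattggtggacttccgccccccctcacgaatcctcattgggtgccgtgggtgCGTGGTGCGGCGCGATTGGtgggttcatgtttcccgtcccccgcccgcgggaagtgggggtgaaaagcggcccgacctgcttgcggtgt

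Over the 35116 windows of RefSeq, from 250 bases before to 50 after a start, 0.49% held GAANNTTCNNGAA on either strand and 6.77% held the shorter GAANNTTC, which lies within it. A window was found for 63 of the 73 members. The longer motif was in a window of 7 of them: HSPA6, HSPA8, HSPD1, HSP90AA1, HSP90AB1, DNAJA1 and DNAJB6. The shorter motif was in 17, among them HSPA1A, HSPA1B and DNAJB1. The stress element of the endoplasmic reticulum was in 0.077% of all windows and, among members, in that of HSP90B1, with 2 matches. DNAJB1 had 3 windows and HSPD1 had 2, and GAANNTTC was in 2 of those of DNAJB1, of which the one with 2 matches is printed, and in 1 of those of HSPD1. In HSPA1A the motif lay 106 to 99 bases before the start and in HSPA1B 105 to 98 bases before it, and both windows matched at 92.6% of 299 aligned bases. A match of letters does not show that a factor was bound.

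MORC2 was lower in all 3 shMORC2 libraries, at 35.0, 29.3 and 27.2 CPM (counts scaled to a common library size), against 46.1, 46.4 and 48.8 CPM in shCtrl. The log2 fold change was -0.63 (edgeR adjusted p 0.000216, SE 0.10). Total counts ran from 42092664 to 43434425 per library, and the members took 1.57% to 1.77% of them. Epithelial markers summed to between 20139 and 26179 CPM in shCtrl and between 19184 and 26071 CPM in shMORC2, with 10 of 10 above 3 counts in at least 1 library. CDX1 reached 4 counts at most. Leukocyte markers summed to at most 0.593 CPM in shCtrl and 0.699 CPM in shMORC2, with 3 of 5 above 3 counts. Endothelial markers, of which 2 of 3 passed that floor, summed to 15.7 to 19.6 CPM in shCtrl and 20.6 to 22.3 CPM in shMORC2, most of it PECAM1, with VWF at 2.03 to 2.48 CPM and 2.86 to 3.59 CPM. Fibroblast markers, of which 4 of 5 passed, summed to 10.0 to 12.6 CPM and 12.5 to 12.6 CPM. DCN, CDH5 and CD3E stood at or under 3 counts in every library, and MS4A1 was at 0. Whether those markers have a part in any result was not tested. In bulk RNA, fewer cells with a transcript and less of it per cell cannot be told apart.

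The inducible HSP70 genes were several times lower in shMORC2, and 39 of the 64 tested members were not called in either direction. DNAJB5 and HSPA2 were higher (log2 fold changes 0.97 and 0.96), as were DNAJB11 (0.64) and HSP90B1 (0.59) of the endoplasmic reticulum. The 11 members of that compartment, grouped after the values were seen, had a median of 0.04. Of the 64 tested members, 25 passed edgeR's quasi-likelihood test at an adjusted p under 0.05 over all 21005 genes tested, and such genes are named as called below. That is 39.1% of them, beside 39.5% of all genes. Higher RNA in shMORC2 was called for 10 members (background 19.9%) and lower RNA for 15 (background 19.6%). The groups did not overlap for 32 members, 15 higher and 17 lower, beside 50.2% of all genes. The median log2 fold change was -0.05 over the members and -0.01 over all genes. A change of at least 0.5 on the log2 scale was called for 13 members, 5 higher and 8 lower, beside 22.4% of all genes. The share of members called was thus close to that of all genes. In all 6 fits that left out 1 library, 17 of the 25 were called, beside 5260 of the 8301 genes called in all.

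**Figure D1:**
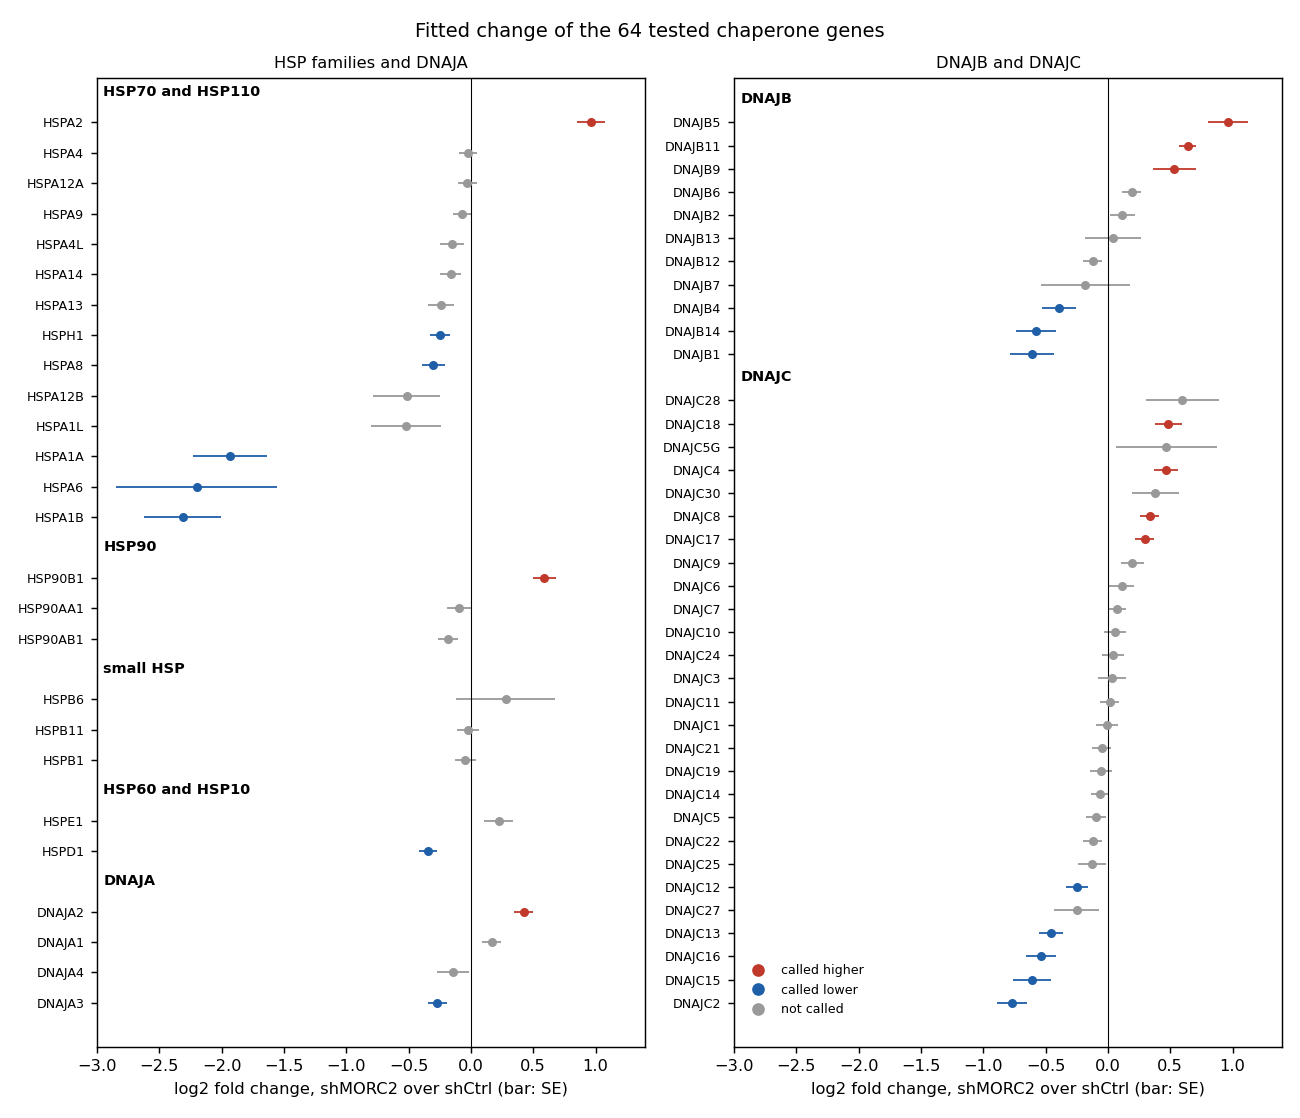
Fitted log2 fold change of shMORC2 over shCtrl (horizontal axis) for the 64 tested members, grouped by family, with bars for 1 standard error and colour for the call. HSPA1A, HSPA6 and HSPA1B lie near -2 and below every other member, and the 10 members called higher reach 0.97.

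Cytosolic HSP70 genes carried the lowest fold changes of all members. HSPA1A (chromosome 6, 31815464 to 31817946, plus strand) and HSPA1B (chromosome 6, 31827735 to 31830255, plus strand) encode the same stress-inducible HSP70 from neighbouring genes. HSPA1A stood at 105, 324 and 231 CPM in shCtrl replicates 1, 2 and 3 and at 43.5, 72.0 and 57.4 CPM in shMORC2. HSPA1B stood at 199, 651 and 442 CPM in shCtrl and at 68.6, 111 and 80.1 CPM in shMORC2. For both genes every shMORC2 library lay below every shCtrl library, and in both groups the first replicate was the lowest and the second the highest. The log2 fold change was -1.93 for HSPA1A (edgeR adjusted p 0.000222, SE 0.29) and -2.31 for HSPA1B (edgeR adjusted p 8.15e-05, SE 0.31).

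Because the coding sequences of this pair are nearly the same, reads can be assigned to either gene, and the counts were also summed. The sum was 304, 974 and 673 CPM in shCtrl and 112, 183 and 137 CPM in shMORC2, a mean of 650.4 ± 336 against 144 ± 36.1 CPM (SD, n = 3). The groups stayed apart, and the shCtrl mean was 4.51-fold that of shMORC2 (log2 fold change -2.17, edgeR adjusted p 0.000112, SE 0.30). HSPA1B took 65.4%, 66.8% and 65.6% of the sum in shCtrl and 61.2%, 60.7% and 58.3% in shMORC2. Leaving out any 1 library kept both genes called, with log2 fold changes between -2.27 and -1.55 for HSPA1A and between -2.66 and -1.89 for HSPA1B.

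HSPA6 (chromosome 1, 161524540 to 161526910, plus strand), a strictly inducible HSP70, had few reads. Its counts were 70, 294 and 203 in shCtrl and 2, 92 and 30 in shMORC2, so that the highest shMORC2 library stood above the lowest shCtrl library, and the first shMORC2 library was under the floor of 3 counts. The order of the replicates was the one seen in HSPA1A and HSPA1B. Its log2 fold change was -2.20 (edgeR adjusted p 0.0159, SE 0.65). The call was lost with DESeq2 (adjusted p 0.186), with limma on log2(RPKM + 0.1) (adjusted p 0.0523), without shCtrl replicate 2 (log2 fold change -1.74, edgeR adjusted p 0.0923) and without shMORC2 replicate 3 (log2 fold change -2.01, edgeR adjusted p 0.0812). Without shMORC2 replicate 2 the value was -3.59 (edgeR adjusted p 0.00379), and limma on log2(RPKM + 1) gave -1.001.

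**Figure D2:**
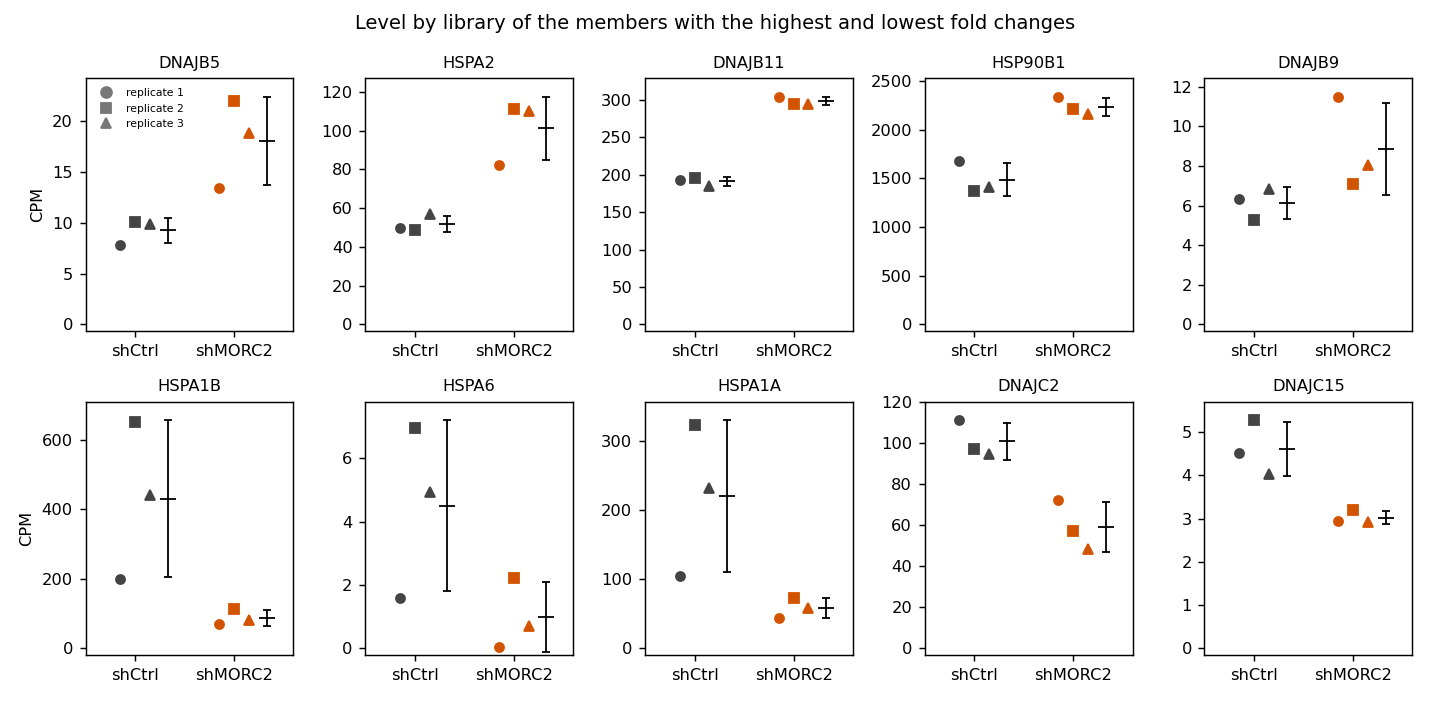
Level in CPM (vertical axis, 1 scale per gene) in each library for the 5 called members with the highest fold changes (top row) and the 5 with the lowest (bottom row). Symbols mark the replicate number, and the bars beside them give the mean and SD of 3 libraries. HSPA1A and HSPA1B spread from 105 to 324 and from 199 to 651 CPM in shCtrl, and HSPA6 is the only gene shown whose groups overlap.

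HSPA8, the constitutive HSP70 of the cytosol, stood at 896, 1141 and 1135 CPM in shCtrl and at 828, 904 and 844 CPM in shMORC2. The 2 higher shCtrl libraries lay above all shMORC2 libraries, while shCtrl replicate 1 lay within the shMORC2 range. Its log2 fold change of -0.30 (edgeR adjusted p 0.0236, SE 0.10) was no longer called without shCtrl replicate 2 (-0.24), shCtrl replicate 3 (-0.24) or shMORC2 replicate 3 (-0.28). HSPH1, an HSP110 that exchanges the nucleotide of HSP70, stood at 144, 149 and 158 CPM in shCtrl and at 139, 125 and 116 CPM in shMORC2. These groups did not overlap, and the log2 fold change was -0.25 (edgeR adjusted p 0.0285, SE 0.08). The call ended without shCtrl replicate 2 (-0.26), shCtrl replicate 3 (-0.21), shMORC2 replicate 2 (-0.24) or shMORC2 replicate 3 (-0.18).

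HSPA2, an HSP70 best known from male germ cells, moved the other way. Its level was 49.96, 48.9 and 56.8 CPM in shCtrl and 82.3, 111 and 110.2 CPM in shMORC2. All shMORC2 libraries were above all shCtrl libraries, by 0.96 on the log2 scale (edgeR adjusted p 2.50e-05, SE 0.11), and the value stayed at 0.89 or above when any 1 library was left out. It was the only HSP70 or HSP110 gene called higher, against 5 called lower (HSPA1A, HSPA1B, HSPA6, HSPA8 and HSPH1) and 8 not called, and the median of the 14 tested was -0.24. Together 42.9% of the 14 were called, beside 39.5% of all genes.

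Mitochondrial HSPA9 (mortalin) was at 519.8, 467 and 488 CPM in shCtrl and at 483, 459.6 and 459.8 CPM in shMORC2. Those ranges overlapped, and the 95% interval of its log2 fold change ran from -0.23 to 0.09 (edgeR adjusted p 0.458). HSPA4, a second HSP110-like exchange factor, was at 368, 355 and 364 CPM in shCtrl and at 349, 369.8 and 351 CPM in shMORC2, with an interval from -0.17 to 0.13 (edgeR adjusted p 0.825). For neither gene was a difference between the groups found. HSPA13, a small HSP70 of the endoplasmic reticulum, had a log2 fold change of -0.24 (edgeR adjusted p 0.0768), and was called when the replicate number entered as a block (adjusted p 0.0387) or without shMORC2 replicate 1 (-0.29, edgeR adjusted p 0.0460). Testis HSPA1L, next to HSPA1A on the other strand, was near 1 CPM (-0.52, edgeR adjusted p 0.164), and HSPA7, annotated as a pseudogene, had too few reads for a test.

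HSP90B1 (chromosome 12, 103930107 to 103953645, plus strand), the HSP90 of the endoplasmic reticulum also called GRP94, was higher in shMORC2. It stood at 1676, 1371 and 1412 CPM in shCtrl and at 2338, 2212 and 2157 CPM in shMORC2. Every shMORC2 library exceeded every shCtrl library, and the log2 fold change was 0.59 (edgeR adjusted p 0.000218, SE 0.09), between 0.53 and 0.68 with any 1 library left out. Its promoter above is the only member window found with the stress element of that compartment. The windows of DNAJB11, DNAJB9 and DNAJC18, of the same compartment and also called higher, held no match.

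The cytosolic HSP90 genes did not share this rise. HSP90AA1, the inducible form, was at 4108, 3442 and 3576 CPM in shCtrl and at 3644, 3647 and 3127 CPM in shMORC2, ranges that overlapped (log2 fold change -0.09, edgeR adjusted p 0.452, SE 0.09). HSP90AB1, the constitutive form, was at 4442, 4717 and 4603 CPM in shCtrl and at 3768, 4267 and 4092 CPM in shMORC2. All its shMORC2 libraries were lower, but the log2 fold change of -0.18 (SE 0.08) had an edgeR adjusted p of 0.0909, and of 0.00466 with the replicate block. HSP90AB1 was also called in the edgeR fits that omitted TMM (adjusted p 0.0394) or took every gene with a count (adjusted p 0.0465). HSP90AB1 and HSP90AA1 have processed copies elsewhere in the genome that can take some of their reads.

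Among small heat shock proteins, HSPB1 (HSP27), which holds unfolded proteins without ATP, was the only canonical one with more than 100 CPM. It was at 179, 183 and 206 CPM in shCtrl and at 168, 186 and 197 CPM in shMORC2, which overlapped, and its log2 fold change of -0.04 (edgeR adjusted p 0.709, SE 0.08) had an interval from -0.23 to 0.14. HSPB11, a part of the intraflagellar transport complex despite its name, was near 28 CPM in both groups (-0.02, edgeR adjusted p 0.853). HSPB6 was tested at a mean of 13 counts, and the other 5 genes of this family had too few reads for a test, HSPB3 none at all.

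The mitochondrial chaperonin and its lid are encoded head to head on chromosome 2. HSPD1 (197486581 to 197516737, minus strand), the HSP60 ring, stood at 1403, 1325 and 1360.3 CPM in shCtrl and at 1096, 1089.5 and 1031 CPM in shMORC2. The groups were well apart, with a log2 fold change of -0.35 (edgeR adjusted p 0.00229, SE 0.07) that ranged from -0.37 to -0.31 with any 1 library left out. HSPE1 (197499994 to 197503457, plus strand), the HSP10 lid, stood at 279, 183 and 248 CPM in shCtrl and at 276, 273 and 279.7 CPM in shMORC2. The shMORC2 libraries sat together near the highest shCtrl library, and shCtrl replicate 2 was far below. Its log2 fold change was 0.22 (edgeR adjusted p 0.155, SE 0.12). HSPE1 was called higher with the replicate block (adjusted p 0.00504) and without shCtrl replicate 1 (log2 fold change 0.36, edgeR adjusted p 0.0151). It was also called in the edgeR fit that took every gene with a count (adjusted p 0.0349). Without shCtrl replicate 2 its value was 0.07 (edgeR adjusted p 0.591). In the deposited annotation the pair shares 281 exonic bases on opposite strands, 14.2% of the exon length of HSPE1, and HSPE1 shares 192 more with the read-through gene HSPE1-MOB4. Whether the counting used strand is not given in the sources used here, and the part of shared reads was not tested.

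DNAJA proteins are the general J-domain partners of HSP70. DNAJA2 was at 149.5, 169.6 and 168 CPM in shCtrl and at 208, 227 and 219 CPM in shMORC2, without overlap (log2 fold change 0.42, edgeR adjusted p 0.000859, SE 0.08). DNAJA1 was at 265, 235 and 266 CPM in shCtrl and at 300.0, 285 and 275 CPM in shMORC2. Its libraries also did not overlap, but the log2 fold change of 0.17 (edgeR adjusted p 0.103, SE 0.08) was called with the replicate block alone (adjusted p 0.0155). Mitochondrial DNAJA3 was at 70.5, 76.7 and 78.1 CPM in shCtrl and at 60.8, 62.3 and 63.8 CPM in shMORC2. All 3 shMORC2 libraries were lower (-0.27, edgeR adjusted p 0.0111, SE 0.07), and the call was lost without shCtrl replicate 3 (-0.24, edgeR adjusted p 0.0628). DNAJA4 was not called (-0.14, edgeR adjusted p 0.403).

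DNAJB genes split evenly, with 3 called higher, 3 called lower and 5 not called among 11 tested. The share called was 54.5%, beside 39.5% of all genes. DNAJB1 (chromosome 19, 14514770 to 14529770, minus strand), the inducible HSP40, was at 161, 328 and 241 CPM in shCtrl and at 146, 165 and 167 CPM in shMORC2. The lowest shCtrl library fell inside the shMORC2 range, and shCtrl replicate 2 was again the highest. Its log2 fold change was -0.61 (edgeR adjusted p 0.0153, SE 0.18). That call was lost with DESeq2 (adjusted p 0.0907), with limma on log2(RPKM + 1) (adjusted p 0.0688) or log2(RPKM + 0.1) (adjusted p 0.0701), and without shCtrl replicate 2 (log2 fold change -0.34, edgeR adjusted p 0.0900). DNAJB1 shares 228 exonic bases with TECR on the opposite strand.

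Of the J proteins in the lumen of the endoplasmic reticulum, DNAJB11 and DNAJB9 were called higher, and DNAJC3 and DNAJC10 (0.06, edgeR adjusted p 0.629) were not called. DNAJB11 (ERdj3; chromosome 3, 186567403 to 186585800, plus strand) was at 193, 196 and 185 CPM in shCtrl and at 304, 295 and 295 CPM in shMORC2. The libraries of each group lay close together and far from the other group, with a log2 fold change of 0.64 (edgeR adjusted p 1.57e-05, SE 0.07). DNAJB9 (ERdj4), which acts in the degradation of misfolded proteins, was at 6.32, 5.25 and 6.83 CPM in shCtrl and at 11.5, 7.06 and 8.03 CPM in shMORC2. Its groups did not overlap, although the first shMORC2 library carried most of the difference (log2 fold change 0.53, edgeR adjusted p 0.0247, SE 0.17). Without that library the value was 0.30 (edgeR adjusted p 0.107), without shCtrl replicate 2 it was 0.43 (edgeR adjusted p 0.109), and limma on log2(RPKM + 1) did not call it (adjusted p 0.0833). DNAJC3 (p58IPK), of the same compartment, was at 25.2, 21.8 and 20.4 CPM in shCtrl and at 26.5, 22.0 and 20.5 CPM in shMORC2. Those values overlapped almost fully (0.04, edgeR adjusted p 0.825, SE 0.11).

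DNAJB5, a cytosolic J protein, had the highest fold change of all members. It was at 7.80, 10.0 and 9.87 CPM in shCtrl and at 13.4, 22.0 and 18.8 CPM in shMORC2. No shCtrl library reached the lowest shMORC2 library, and the log2 fold change was 0.97 (edgeR adjusted p 0.000416, SE 0.16). DNAJB14, of the membrane of the endoplasmic reticulum, was at 9.72, 10.7 and 10.3 CPM in shCtrl and at 8.52, 7.13 and 4.93 CPM in shMORC2, all of them lower (log2 fold change -0.58, edgeR adjusted p 0.0123, SE 0.16). Its value was -0.38 without shMORC2 replicate 3, and limma did not test it because its mean RPKM is under 1. DNAJB4 had a log2 fold change of -0.39 (edgeR adjusted p 0.0368, SE 0.14) with overlapping groups, and it was called in 2 of the 6 fits without 1 library. It lost the call without shCtrl replicate 2 (-0.32), shCtrl replicate 3 (-0.32), shMORC2 replicate 1 (-0.36) or shMORC2 replicate 3 (-0.34), and in both limma fits. DNAJB6, which keeps aggregation-prone proteins soluble, was at 146, 144 and 158 CPM in shCtrl and at 162, 178 and 172 CPM in shMORC2. Every shMORC2 library was higher, yet the edgeR adjusted p was 0.0574 (log2 fold change 0.19, SE 0.07). It was 0.00763 with the replicate block and 0.0278 without shMORC2 replicate 1 (log2 fold change 0.23). DNAJB6 was also called in the edgeR fits that omitted TMM (adjusted p 0.0494) or set a minimum mean of 50 counts (adjusted p 0.0374).

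Of the 27 DNAJC genes tested, a family joined only by its J domain, 4 were called higher, 5 lower and 18 not called. The share called was 33.3%, beside 39.5% of all genes. DNAJC2 (MPP11; chromosome 7, 103312474 to 103344873, minus strand), which works with HSPA14 at the ribosome, was at 111, 96.9 and 94.7 CPM in shCtrl and at 72.3, 57.0 and 48.2 CPM in shMORC2. The groups did not overlap, and the log2 fold change of -0.77 (edgeR adjusted p 0.000315, SE 0.12) stayed between -0.94 and -0.64 with any 1 library left out. It shares 628 exonic bases, 9.57% of its exon length, with PMPCB on the opposite strand. DNAJC15, of the mitochondrial inner membrane, was at 4.52, 5.27 and 4.04 CPM in shCtrl and at 2.95, 3.19 and 2.91 CPM in shMORC2. All shMORC2 libraries were lower, by a log2 fold change of -0.61 (edgeR adjusted p 0.00647, SE 0.15). It was not called by limma, where its RPKM is under the minimum of 1.

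The other DNAJC genes called lower were DNAJC16 (-0.54, edgeR adjusted p 0.00321), the endosomal DNAJC13 (-0.46, edgeR adjusted p 0.00191) and DNAJC12 (-0.25, edgeR adjusted p 0.0369). The call of DNAJC12 was lost without shCtrl replicate 1 (-0.18), shCtrl replicate 3 (-0.25), shMORC2 replicate 2 (-0.21) or shMORC2 replicate 3 (-0.24), and in both limma fits. Those called higher were DNAJC18 (0.49, edgeR adjusted p 0.00312), DNAJC4 (0.46, edgeR adjusted p 0.00190), the spliceosome-associated DNAJC8 (0.33, edgeR adjusted p 0.00334) and DNAJC17 (0.30, edgeR adjusted p 0.00709). All 4 kept their call in each of the 6 fits without 1 library. DNAJC9, a histone chaperone, had a log2 fold change of 0.20 (edgeR adjusted p 0.110) that was called with the replicate block (adjusted p 0.00677) and without shCtrl replicate 1 (0.28, edgeR adjusted p 0.0226). With that block 31 members were called in all, beside 49.0% of all genes.

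**Figure D3:**
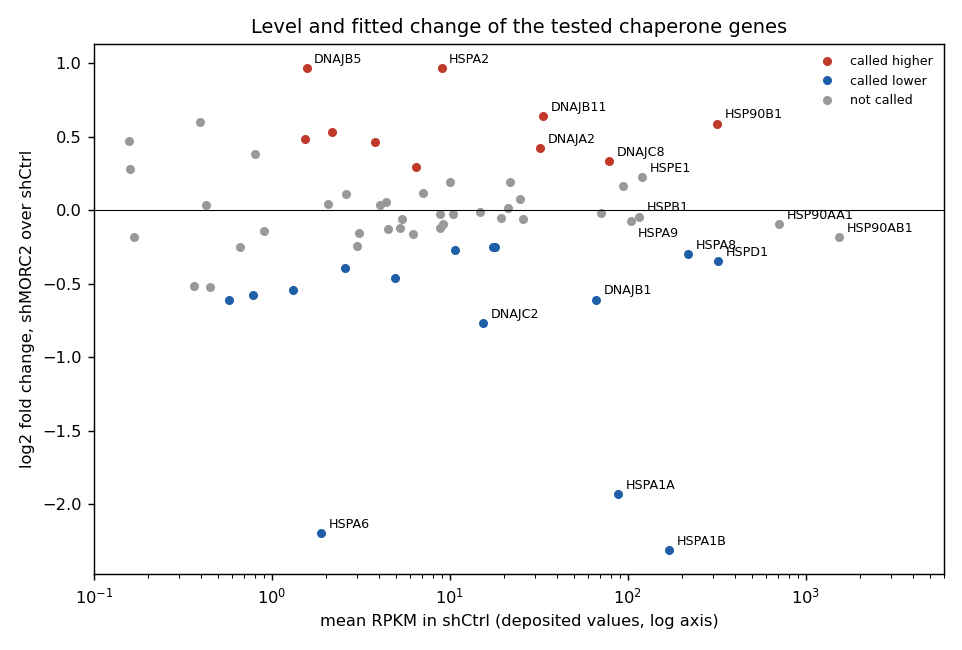
Fitted log2 fold change (vertical axis) against the mean RPKM of the 3 shCtrl libraries (horizontal axis, log scale) for the 64 tested members, coloured by call. HSP90AB1 and HSP90AA1 are the most abundant and lie near 0, and HSPA1A and HSPA1B stand apart at intermediate to high level with the lowest values beside HSPA6.

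Levels per length were compared with the deposited RPKM values (reads scaled to exon length and library total). Over the 70 members with a count in any library, summed RPKM was 4408 ± 93.5 in shCtrl and 4051 ± 98.5 in shMORC2 (SD, n = 3). HSP90AB1 took 35.0% ± 0.405 of it in shCtrl and 33.4% ± 1.56 in shMORC2, and HSP90AA1 took 16.1% ± 1.83 and 16.3% ± 1.22. With HSPD1 these genes held 58.4% of the sum in shCtrl. HSP90B1 went from 7.22% ± 0.940 to 11.7% ± 0.639, HSPD1 from 7.30% ± 0.347 to 6.21% ± 0.203 and HSPA1B from 3.86% ± 1.97 to 0.842% ± 0.190. HSPA8 held 4.95% ± 0.577 in shCtrl and 4.35% ± 0.0850 in shMORC2. Per library, HSPA1B held 1.83%, 5.77% and 3.97% in shCtrl, of which replicate 2 alone lay above HSPA8, and 0.679%, 1.05% and 0.796% in shMORC2.

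The members that varied most among the control libraries, at a mean of at least 100 counts, were 4 inducible genes. Among the 56 members with a mean of at least 100 counts, the highest shCtrl library exceeded the lowest by a median of 1.14-fold, beside 1.16-fold over 14335 such genes. In 4 members (7.14%) the ratio was above 2, against 86 of 14335 genes in all. These were HSPA6 (4.35), HSPA1B (3.27), HSPA1A (3.08) and DNAJB1 (2.03), and in each of them shCtrl replicate 2 was the highest and replicate 1 the lowest. The ratio was lower for inducible HSP90AA1 (1.19) and the partner gene BAG3 (1.23), and for DNAJB4 (1.37) and HSPE1 (1.52). In HSPA8, DNAJB4 and BAG3 shCtrl replicate 2 was likewise the highest and replicate 1 the lowest. For HSP90AA1 and HSPE1 that order was reversed. In shMORC2 the same ratio was 1.66 for HSPA1A, 1.62 for HSPA1B and 1.14 for DNAJB1, and it was 49.0 for HSPA6, from counts of 2, 92 and 30. What moved these genes together within shCtrl was not tested.

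Grouped by call, GAANNTTC was in a window of 0 of 10 members called higher, 6 of 15 called lower (DNAJB1, HSPA1A, HSPA1B, HSPA6, HSPA8 and HSPD1), 10 of 33 not called and 1 of 5 not tested. HSPA1L is among the 10 not called. Its window overlaps that of HSPA1A and holds the same match, which is thus counted for both genes. GAANNTTCNNGAA was in 3 of the 15 called lower (HSPA6, HSPA8 and HSPD1) and in 4 of the 33 not called (DNAJA1, DNAJB6, HSP90AA1 and HSP90AB1). Members with the motif therefore stood in both classes, and DNAJA1 and DNAJB6, which hold the longer one, had positive fold changes. HSPE1, not called, was counted as without either motif. Its window starts at 197500129 on chromosome 2 and does not reach the printed HSPD1 bases that hold the matches, which end at 197500090. The reverse pairing TTCNNGAA, in 7.74% of all windows, was in 0 of 10 called higher, 5 of 15 called lower and 7 of 33 not called. The stress element of the endoplasmic reticulum was in 1 of 10 called higher (HSP90B1), 0 of 15 called lower and 0 of 33 not called.

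The wider chaperone network was followed with 62 other genes, of which 60 were tested. Of these, 13 were called higher and 19 lower, 53.3% together, beside 39.5% of all genes, with a median log2 fold change of -0.04. A change of at least 0.5 on the log2 scale was called for 9 of the 60, 5 higher and 4 lower, beside 22.4% of all genes. Among regulators, HSF1 was at 47.8, 59.4 and 57.1 CPM in shCtrl and at 47.1, 49.7 and 54.0 CPM in shMORC2, which overlapped (-0.12, edgeR adjusted p 0.318, SE 0.09). HSF4 was at 7.30, 8.32 and 7.76 CPM in shCtrl and at 4.87, 3.99 and 3.99 CPM in shMORC2, with every shMORC2 library lower (-0.86, edgeR adjusted p 0.000215, SE 0.13). HSF2 was at 14.99, 16.2 and 15.8 CPM in shCtrl and at 13.3, 13.0 and 11.9 CPM in shMORC2 (-0.30, edgeR adjusted p 0.0223, SE 0.09), and was no longer called without shCtrl replicate 2 (-0.28), shCtrl replicate 3 (-0.29), shMORC2 replicate 2 (-0.32) or shMORC2 replicate 3 (-0.25). HSBP1, a negative regulator of HSF1, was higher (0.57, edgeR adjusted p 0.000144, SE 0.08).

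Of the 14 cofactors of HSP70, 2 were called higher and 7 lower, 64.3% together, beside 39.5% of all genes. The risers were both exchange factors of the endoplasmic reticulum. HYOU1 was at 224, 227 and 207 CPM in shCtrl and at 289.8, 276 and 291 CPM in shMORC2, without overlap (0.38, edgeR adjusted p 0.00108, SE 0.07). SIL1 had a log2 fold change of 0.51 (edgeR adjusted p 0.000248, SE 0.08). The mitochondrial exchange factor GRPEL2 was at 12.8, 18.5 and 15.9 CPM in shCtrl and at 10.9, 8.05 and 8.71 CPM in shMORC2, again without overlap (-0.77, edgeR adjusted p 0.00106, SE 0.15), and GRPEL1 had a log2 fold change of -0.36 (edgeR adjusted p 0.00235). BAG2 had a log2 fold change of -0.70 (edgeR adjusted p 0.000113), and BAG1, BAG4, BAG5 and the ubiquitin ligase STUB1 were lower by smaller amounts. BAG1 (-0.31) lost its call without shMORC2 replicate 2 (-0.24). BAG4 (-0.25) lost it without shMORC2 replicate 2 (-0.25) or 3 (-0.24) and without shCtrl replicate 3 (-0.21). STUB1 (-0.27) lost it without shCtrl replicate 3 (-0.27) or shMORC2 replicate 2 (-0.22). BAG5 (-0.23) kept it without shCtrl replicate 3 alone, and lay between -0.28 and -0.17 without any other library. Heat-inducible BAG3 was at 60.4, 74.1 and 72.0 CPM in shCtrl and at 53.2, 67.1 and 63.4 CPM in shMORC2, which overlapped (-0.17, edgeR adjusted p 0.208, SE 0.10, and 0.0232 with the replicate block).

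**Figure D4:**
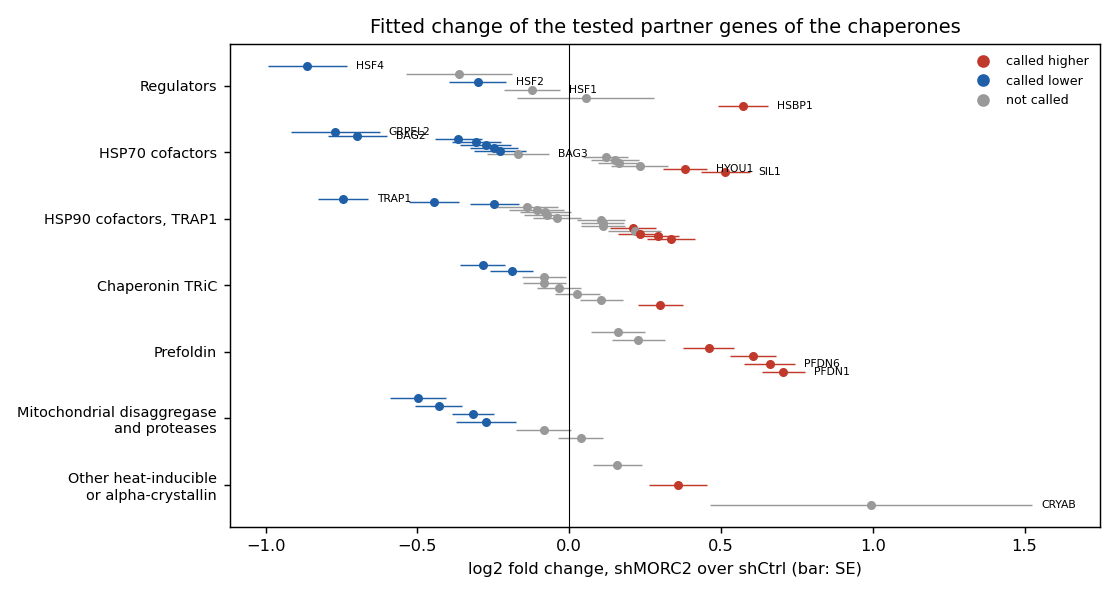
Fitted log2 fold change of shMORC2 over shCtrl (horizontal axis) for the tested partner genes reported here, in 7 lists, with bars for 1 standard error and colour for the call. All 6 prefoldin genes lie right of 0, 4 of them called, and 4 of the 6 mitochondrial disaggregase and protease genes were called lower.

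Among 16 genes, cofactors of HSP90 together with TRAP1, 4 were called higher and 3 lower, TRAP1 among the latter. The share called was 43.75%, beside 39.5% of all genes. TRAP1, the mitochondrial HSP90, was at 478, 512 and 519 CPM in shCtrl and at 268, 317 and 315 CPM in shMORC2. Its groups were far apart, with a log2 fold change of -0.75 (edgeR adjusted p 2.00e-05, SE 0.08). CHORDC1 was lower as well (-0.45, edgeR adjusted p 0.000902). Of the 8 subunits of the cytosolic chaperonin TRiC, CCT4 was called higher (0.30, edgeR adjusted p 0.00527) and CCT5 (-0.29, edgeR adjusted p 0.00815) and CCT8 (-0.19, edgeR adjusted p 0.0449) lower. Those calls make 37.5% of the subunits. CCT8 kept its call without shMORC2 replicate 1 alone, and lay between -0.21 and -0.16 without any other library.

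Prefoldin, the hexamer that hands nascent actin and tubulin to TRiC, was the partner list with the highest median, 0.53 over 6 genes. PFDN1 (0.71), PFDN6 (0.66), PFDN4 (0.61) and PFDN5 (0.46) were called higher, with edgeR adjusted p-values from 8.38e-06 to 0.000878, and PFDN2 (0.16, edgeR adjusted p 0.176) and VBP1 (0.23, edgeR adjusted p 0.0555) were called with the replicate block (adjusted p 0.0267 and 0.0107). Without shMORC2 replicate 1, PFDN2 was called as well (0.25, edgeR adjusted p 0.0192), and without shCtrl replicate 3 so was VBP1 (0.29, edgeR adjusted p 0.0498). Of the 6 mitochondrial disaggregase and protease genes, CLPP (-0.50), CLPX (-0.43), AFG3L2 (-0.32) and CLPB (-0.27) were called lower, with edgeR adjusted p-values from 0.000730 to 0.0425. In this list, as in prefoldin, 66.7% were called, beside 39.5% of all genes. CLPB lost its call without shCtrl replicate 2 (-0.23), shCtrl replicate 3 (-0.28), shMORC2 replicate 1 (-0.16) or shMORC2 replicate 2 (-0.32). Of the remaining list, SERPINH1, the collagen chaperone of the endoplasmic reticulum, was higher (0.36, edgeR adjusted p 0.00947), and its call was lost without shMORC2 replicate 3 (0.28). CRYAB was at 0.0684, 0.236 and 0.243 CPM in shCtrl and at 0.541, 0.336 and 0.211 CPM in shMORC2, a mean of 11.7 counts, with overlap and no call (0.99, edgeR adjusted p 0.155, SE 0.53).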

How the data were processed

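Raw counts of reads for each gene symbol in 6 libraries were deposited in the layout of featureCounts, together with RPKM values, which the authors computed from the same counts, exon lengths and library totals. The submitters' processing notes name Trimmomatic 0.36, STAR 2.5.3a, Subread 1.5.1 and edgeR 3.12.1 with GRCh38. The annotation release, the strand setting and the use of the molecular identifiers of the stranded kit are not given in the sources used here. A deposited splicing comparison, with inclusion levels and p-values, was not used, since its groups carry no names. No column of per-sample values lay outside the series.

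Counts were tested in R 4.3.3 with edgeR 4.0.16 (filterByExpr, TMM, glmQLFit) in a model of group alone, with p-values adjusted by Benjamini-Hochberg over 21005 genes and called under 0.05. Standard errors were the log2 fold change divided by the square root of F, and intervals covered 95%. The 9 members without a test had too few reads. Lists were counted from that fit, with no test of a list. The alternatives tried were DESeq2 1.42.0, a fit that omitted TMM, every gene with a count, a minimum mean of 50 counts, a replicate block, limma 3.58.1 on log2(RPKM + 1) or log2(RPKM + 0.1) at a mean RPKM of at least 1, HSPA1A and HSPA1B summed, stricter thresholds, and each library left out. The edgeR, DESeq2 and limma tests were tested on simulated data. The deviations of same-numbered libraries from their group means were correlated over genes (0.215, 0.111 and 0.102), so the numbers were taken to pair them, on the values alone. On a log2 scale of scaled counts + 0.5 the correlations were 0.182, 0.0973 and 0.0925. Sampling noise was exceeded by the difference of each pair of replicates (chi-square per degree of freedom from 6.35 to 21.5).

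Total counts of 42092664 to 43434425 give a floor of 3 counts, about 0.07 CPM. That floor covers counting error only. The intervals of the log2 fold changes come from the edgeR fit and also carry the spread between these libraries. The members, lists and tests were chosen with earlier results of these data known. Values in every library are given for the best known member of each family, for the 5 highest and 5 lowest fold changes among called members with a mean of at least 100 counts, for HSF1, HSF2, BAG3, HYOU1, CRYAB and the 3 called partner genes with the largest change, and for MORC2. Library values of DNAJA2, DNAJA3, DNAJB14 and HSP90AA2P were added after their values were seen. The result of 1 partner gene is not reported here, although it stays in the counts. Of the members, 72 of 73 overlapped a GENCODE v44 entry with their symbol on GRCh38. Of the 64 tested members, 12 shared exonic bases with a gene on the same strand and 26 with one on the opposite strand.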

Additional observations from a re-analysis of the deposited data

How the results depend on the processing

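Of the values for named genes under the alternatives, 361 kept their direction and their side of the threshold, 23 lost the call, 12 gained it and 4 changed sign. The sign changes were those of HSPB1 (0.024 without shCtrl replicate 3 and 0.019 without shMORC2 replicate 1, range -0.095 to 0.024 over the fits without 1 library) and DNAJC3 (-0.026 without shCtrl replicate 3 and -0.077 without shMORC2 replicate 1, range -0.077 to 0.12), neither of which was called in any fit. HSPA1A and HSPA1B were called in every alternative. An adjusted p under 0.01 called 5302 genes and 16 members, 7 of them lower. A log2 change of at least 0.5 left 13 members, 5 higher and 8 lower. limma on log2(RPKM + 0.1) called 9 members lower. limma on log2(RPKM + 1) gave 0.64 for DNAJB5 and -0.55 for HSF4, both still called. The stricter thresholds lower the counts by construction, and for limma the cause was not tested. Leaving out 1 library gave 19 to 26 called members, 9 to 12 higher and 10 to 15 lower, 6268 to 8433 called genes and 22 to 34 called partner genes, and kept MORC2 between -0.74 and -0.55.

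With the replicate block, 31 members, 42 partner genes and 10287 genes were called. It added HSP90AB1, HSPE1, HSPA13, DNAJA1, DNAJB6 and DNAJC9 to the members, and BAG3, PFDN2, VBP1 and HSPBP1 to the partner genes named here, and ended no call of a member. It changed no other call of a named gene. Pairing rests on correlations close to 0.1. Few counts left 5 small heat shock proteins without a test.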

Other observations

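Grouped by compartment after the values were seen, and so with no test, the 11 members of the endoplasmic reticulum held 4 called higher (HSP90B1, DNAJB11, DNAJB9 and DNAJC18) and 2 called lower (DNAJB14 and DNAJC16), with a median log2 fold change of 0.04. Over all genes tested, 19.9% were called higher and 19.6% lower. The partner genes HYOU1 and SIL1 of the endoplasmic reticulum were both called higher. So was SERPINH1 of the same compartment, which this grouping left out. The 10 members of the mitochondrion held 3 called lower (HSPD1, DNAJA3 and DNAJC15) and 1 called higher (DNAJC4), with a median of -0.02. The 9 mitochondrial partner genes held 7 called lower (TRAP1, GRPEL1, GRPEL2, CLPP, CLPX, AFG3L2 and CLPB) and none called higher, with a median of -0.36, while LONP1 (0.04) and HTRA2 (-0.08) were not called.

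Among the 33 symbols ending in P or P and digits that the rule left out, 3 were looked at after their values were seen. HSPBP1 and HSPBAP1 are not pseudogenes: HSPBAP1 had a log2 fold change of -0.37 (edgeR adjusted p 0.0278, and from 0.0286 to 0.0900 without any 1 library), and HSPBP1, counted among the cofactors of HSP70, had one of 0.23 (edgeR adjusted p 0.0642, and from 0.0463 to 0.248 without any 1 library). The copy HSP90AA2P stood at 16.1, 11.4 and 12.2 CPM in shCtrl and at 21.8, 19.0 and 16.5 CPM in shMORC2 (log2 fold change 0.53, edgeR adjusted p 0.00764), whereas HSP90AA1 had a log2 fold change of -0.09 (edgeR adjusted p 0.452). How reads were divided between such copies was not tested.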
